A study of Mus musculus with 4 samples.

Results

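The metallothionein genes Mt1 and Mt2 were followed together with Mtf1, which encodes their metal-sensing transcription factor, and Slc30a1, which encodes a zinc exporter, in single-cell libraries of mouse bone marrow. These 4 genes of the 31053 in the deposited matrices were taken by symbol, and all 4 were found. They were picked because Mt1 had been seen to be higher in STAT5 knockout (STAT5 KO) KLS cells and not in the stromal cells, so the level of Mt1 in those libraries is a description of what chose the genes and supports nothing. The KLS sort takes marrow cells that lack lineage markers and carry c-Kit and Sca-1, which enriches blood stem cells and early progenitors. The other sorted population, MSC, is CD45-negative, Sca-1-positive and CD140a-positive stroma. Each population was profiled in 1 control and 1 STAT5 KO library, by droplet 3′ RNA sequencing with unique molecular identifiers (UMIs).

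All 4 groups carried the Vav1-Cre transgene, whose promoter is active in blood cells. The genotype of the knockout groups was Vav1-Cre/+STAT5abfl/fl and that of the controls Vav1-Cre/+STAT5ab+/+, with intact Stat5a and Stat5b. The labels name 4 mice, aged 8 to 12 weeks, for KLS and an age of 6 to 8 weeks for MSC, so age and sort cannot be told apart. No label ties a cell to a mouse. With 1 library per group no comparison below has a test, and every interval given is a 95% interval that covers counting error only, not differences between mice or preparations.

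Metallothioneins are small, cysteine-rich proteins that bind zinc and copper and buffer the free metal in a cell. MTF-1, the product of Mtf1, gains DNA binding when zinc rises and acts on metal response elements (MREs) in the promoters of Mt1, Mt2 and Slc30a1. ZnT1, the product of Slc30a1, moves zinc out of the cell across the plasma membrane. Mt1 and Mt2 are also known to be induced by cadmium, glucocorticoids and oxidative stress.

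On GRCm38, Mt1 (ENSMUSG00000031765) spans chromosome 8, 94179082 to 94180327, on the plus strand, in 3 exons. Mt2 (ENSMUSG00000031762) lies on the same strand at 94172664 to 94173568, and Mt1 starts 5514 bases after its end. Mtf1 (ENSMUSG00000028890) spans chromosome 4, 124802104 to 124849800, and Slc30a1 (ENSMUSG00000037434) chromosome 1, 191906767 to 191913247, both on the plus strand. Mt1 and Mt2 are close paralogs, but the longest run of identical bases between any of 3 Mt1 and 2 Mt2 transcripts was 20 bases.

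The promoters of the metal-responsive members are shown because Mt1 and Mt2 were higher together in the libraries described below. They are the 250 bases before the start annotated by RefSeq (GRCm38.p6), 5′ to 3′ on the plus strand, at chr8:94178839-94179088, chr8:94172368-94172617 and chr1:191906531-191906780. Capitals mark matches of the MRE core, TGCACNC or TGCGCNC, searched on both strands.
Mt1: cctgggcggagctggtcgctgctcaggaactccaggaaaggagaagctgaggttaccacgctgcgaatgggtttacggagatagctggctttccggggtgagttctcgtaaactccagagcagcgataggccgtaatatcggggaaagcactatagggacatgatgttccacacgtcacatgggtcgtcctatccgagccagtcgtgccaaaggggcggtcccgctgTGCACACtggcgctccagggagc
Mt2: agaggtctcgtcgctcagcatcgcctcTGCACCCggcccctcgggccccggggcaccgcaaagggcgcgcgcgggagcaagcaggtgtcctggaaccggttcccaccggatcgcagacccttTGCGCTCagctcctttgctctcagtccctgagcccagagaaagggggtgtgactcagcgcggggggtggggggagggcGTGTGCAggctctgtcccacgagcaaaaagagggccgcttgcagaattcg
Slc30a1: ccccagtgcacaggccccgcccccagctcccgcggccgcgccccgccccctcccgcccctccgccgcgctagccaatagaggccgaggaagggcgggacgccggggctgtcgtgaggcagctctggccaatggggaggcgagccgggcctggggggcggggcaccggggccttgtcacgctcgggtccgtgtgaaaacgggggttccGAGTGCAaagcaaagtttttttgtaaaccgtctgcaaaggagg

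The Mt2 window held 3 matches, the Mt1 window 1, from 23 to 17 bases before the start, the Slc30a1 window 1 and the Mtf1 window 0. At least 1 match was present in 21.4% of 32851 mouse promoter windows of this length and at least 3 in 1.26%. With the 50 bases after the annotated start included, the counts were 4 in Mt2, 3 in Mt1, 2 in Slc30a1 and 0 in Mtf1, and at least 3 matches were present in 1.97% of windows. The palindrome bound by STAT factors, TTCNNNGAA, had 0 matches in the 250-base windows of all 4 members and at least 1 in 7.02% of all windows. The core of the antioxidant response element, TGACNNNGC, had 1 match each in Mt2 and Slc30a1, none overlapping an MRE match, and was present in 10.2% of all windows. The RefSeq starts differ from the gene starts given above. The Mt2 window ended at 94172617, before the gene start at 94172664. The Mtf1 window, 124802299 to 124802548, lay inside its gene span, so the counts depend on the annotation used. A match is a description of these letters and not of a bound site.

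The control and STAT5 KO libraries held 3747 and 7511 barcodes for KLS and 672 and 425 for MSC. After filtering, 3085 and 6726 KLS cells and 577 and 374 MSC cells remained, with medians of 15136, 10085, 2732 and 2496 UMIs per cell. Median mitochondrial shares were 4.44% and 2.91% in control and STAT5 KO KLS, and the part of this gap in the results was not tested. Some barcodes occurred in more than 1 library. Those with more UMIs in another library made up 10.4% of KLS control and 3.74% of KLS STAT5 KO barcodes and held medians of 714.5 and 670 UMIs, and they were left out. In 2 sort genes the libraries differed as sorted: Ptprc, which encodes CD45, stood at 153 and 154 counts per 1000000 UMIs (CPM) in the KLS libraries and at 3.99 and 5.84 CPM in the MSC libraries, while Pdgfra, which encodes CD140a, was at 0 UMIs in both KLS libraries and at 287 and 236 CPM in MSC. The MSC libraries were not pure stroma. By the gates described below, 13.2% of control and 13.6% of STAT5 KO cells were erythroid and 18.9% and 17.9% in no gate. A neutrophil marker list summed to 1260 and 452 CPM there, and a B and plasma cell list to 411 and 113 CPM. These cells are part of the MSC values unless a gate is named. Stat5a was 68.5 CPM in control KLS against 6.74 CPM with the knockout, and Stat5b 60.8 and 4.49 CPM. In MSC, Stat5a was 39.9 and 55.0 CPM and Stat5b 50.2 and 46.7 CPM.

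In KLS cells both metallothioneins were higher in STAT5 KO by about 3-fold, while the level of their regulator Mtf1 was within counting error. Mt1 stood at 20.2 CPM (19.0 to 21.5) in the control library against 60.9 CPM (59.1 to 62.7) in the STAT5 KO library, a ratio of 3.01 (2.81 to 3.22). Mt2, the second ubiquitous metallothionein, stood at 6.18 CPM (5.52 to 6.90) and 20.1 CPM (19.1 to 21.1), a ratio of 3.25 (2.88 to 3.68). The intervals of control and STAT5 KO did not overlap for either gene. Of 13973 genes with at least 20 UMIs over both KLS libraries, 1.02% were higher and 2.32% lower in STAT5 KO by 1.5-fold or more, which is the size called a difference here. With the barcodes shared between libraries kept, Mt1 was 29.6 and 65.4 CPM and Mt2 11.7 and 22.5 CPM, so the ratio of Mt2 was 1.93.

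**Figure D1:**
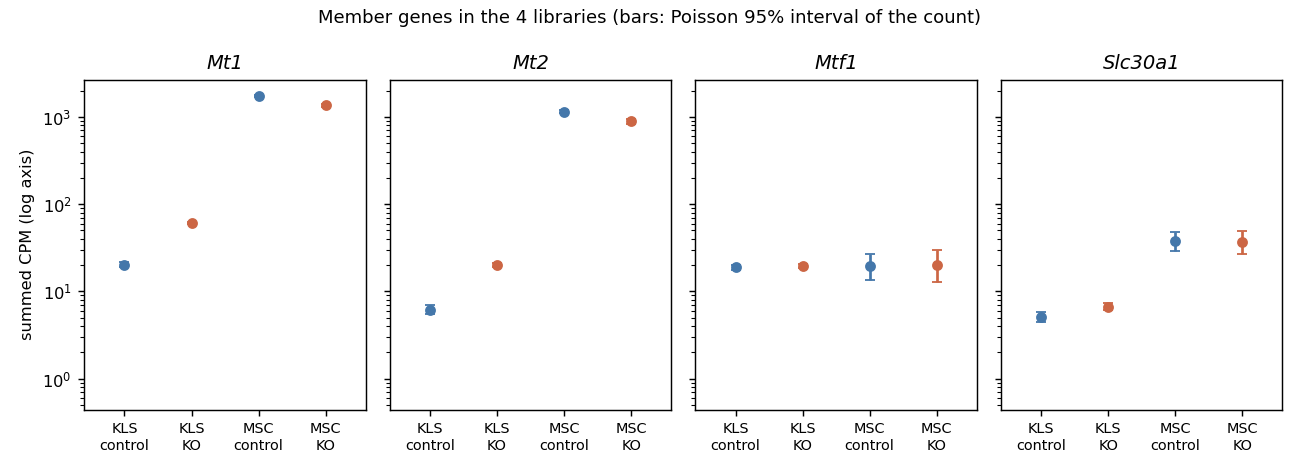
Summed CPM (vertical, log axis) of Mt1, Mt2, Mtf1 and Slc30a1 in the 4 libraries, with Poisson 95% intervals as bars. Mt1 and Mt2 were higher in STAT5 KO than in control KLS, at 60.9 against 20.2 CPM and 20.1 against 6.18 CPM, and far higher in both MSC libraries, while Mtf1 stood near 20 CPM in all 4.

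More cells had a metallothionein UMI in STAT5 KO, although those cells were shallower. An Mt1 UMI was found in 17.7% of them against 9.14% of control cells, and an Mt2 UMI in 4.40% against 0.972%. With each cell thinned to 5000 UMIs, which left out 41 control and 905 STAT5 KO cells, the shares were 11.6% (10.8 to 12.5%) against 3.98% (3.31 to 4.73%) for Mt1 and 3.37% (2.92 to 3.86%) against 0.558% (0.326 to 0.893%) for Mt2. No gate of these cells is known to lack Mt1. In the lymphoid gate, which had the lowest share, 3.82% of control and 4.41% of STAT5 KO cells had an Mt1 UMI, at medians of 14127 and 9321 UMIs, and 1.14% and 2.34% after thinning. The other metallothionein genes of the locus were nearly silent. Mt3 had 4 UMIs in control and 17 in STAT5 KO KLS, and Mt4 had 0 in all 4 libraries, which allows up to 0.0587 and 0.0393 CPM in control and STAT5 KO KLS.

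KLS cells were divided by marker UMIs that do not include the members: a stem triad of Hlf, Mecom and Procr, which mark stem cells, lymphoid by Dntt, megakaryocytic by Pf4, erythroid by Klf1 and Gata1, myeloid by Mpo with the granule proteases Elane, Prtn3 and Ctsg, more than 1 lineage, and no gate. In control the order of Mt1 ran from the erythroid gate at 459 CPM (420 to 500), over megakaryocytic at 20.4 CPM (14.8 to 27.5), myeloid at 15.2 CPM (13.1 to 17.6), more than 1 lineage at 11.3 CPM (9.50 to 13.4), no gate at 9.71 CPM (7.90 to 11.8) and the stem triad at 7.60 CPM (5.01 to 11.1), to lymphoid at 3.37 CPM (2.36 to 4.67). Below the erythroid gate, each gate overlapped the next in this order except for the lymphoid gate, which lay below all others. In STAT5 KO the erythroid gate was again highest at 716 CPM (681 to 753) and the lymphoid gate again lowest at 6.03 CPM (4.87 to 7.38). The stem triad had moved to the second place.

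The stem triad showed the widest gap between the libraries of any gate. Mt1 was 194 CPM (175 to 215) in the 214 STAT5 KO cells of this gate against 7.60 CPM in the 292 control cells, a log2 ratio of 4.67 (4.11 to 5.30). Mt2 had 140 UMIs there, 74.0 CPM, against 1 UMI in control, a log2 ratio of 8.04 (5.54 to 13.35). After thinning, an Mt1 UMI was present in 32.3% of STAT5 KO and 4.51% of control cells of the gate, and an Mt2 UMI in 37 of 192 cells against 0 of 288. The gate held 3.18% of STAT5 KO and 9.47% of control cells. Its cells were chosen by a UMI of each triad gene, and those genes still differed beyond counting error: Hlf was 496 CPM in STAT5 KO and 602 CPM in control, Mecom 241 and 188, and Procr 165 and 131. Ptprc was 179 and 175 CPM, with overlapping intervals. Vwf, a gene of platelet-biased stem cells and megakaryocytes, was 156 CPM in STAT5 KO and 16.9 CPM in control. Of 5 erythroid markers, Klf1 and Alas2 were at 0 UMIs in the STAT5 KO cells of this gate and Alas2 in the control cells, and the list, with 3 and 4 of 5 genes detected, summed to 719 CPM against 887 CPM in control.

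Cells outside every gate came next. Mt1 was 73.2 CPM (69.1 to 77.5) in 2111 STAT5 KO cells against 9.71 CPM in 900 control cells, a log2 ratio of 2.91 (2.62 to 3.22), and Mt2 was 24.1 CPM (21.7 to 26.6) against 0.680 CPM (0.273 to 1.40). In these cells the B and plasma cell list summed to 117 CPM in STAT5 KO, with 5 of 6 genes detected and Ms4a1 at 0, and to 31.9 CPM in control, with 4 of 6 detected and Cd79a and Ms4a1 at 0. Its part in the result was not tested. Over the whole libraries, Jchain, the immunoglobulin joining chain, was 449 CPM in the STAT5 KO cells with 10 or more Mt1 UMIs and 4.47 CPM in those with none, against 0 and 0.447 CPM in control, where cells with 1 to 9 Mt1 UMIs had 79.8 CPM. Without cells that had a Jchain UMI, Mt1 over the whole libraries was 20.3 and 60.8 CPM, and this was not computed within the gate. This gate was also the one that took up most shared barcodes: with them kept, its log2 ratio was 0.78 for Mt1 and 0.35 for Mt2.

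In the megakaryocytic gate Mt1 was 104 CPM (92.1 to 117) in STAT5 KO against 20.4 CPM, a log2 ratio of 2.35 (1.88 to 2.85), and Mt2 had 71 UMIs against 1. In the erythroid gate, where control levels were highest, Mt1 was 716 against 459 CPM, a log2 ratio of 0.64 (0.50 to 0.79), and Mt2 373 against 241 CPM, a log2 ratio of 0.63 (0.43 to 0.84). This gate rested on 40 control and 112 STAT5 KO cells. The log2 ratio of Mt1 was 1.23 (0.99 to 1.48) in the myeloid gate, 1.25 (0.97 to 1.54) in cells with more than 1 lineage and 0.84 (0.27 to 1.43) in the lymphoid gate. Mt2 stayed low in the myeloid gate, with 1 UMI in control and 18 in STAT5 KO, or 0.0865 and 0.936 CPM, a log2 ratio of 3.44 (0.77 to 8.82). Deeper cells meet a gate more easily. With gates set after thinning the log2 ratio of Mt1 was 4.06 in the stem triad, 1.94 in megakaryocytic, 1.83 in no gate, 1.51 in lymphoid, 1.36 in erythroid, 0.73 in more than 1 lineage and 0.54 in myeloid, all on the higher side in STAT5 KO.

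**Figure D2:**
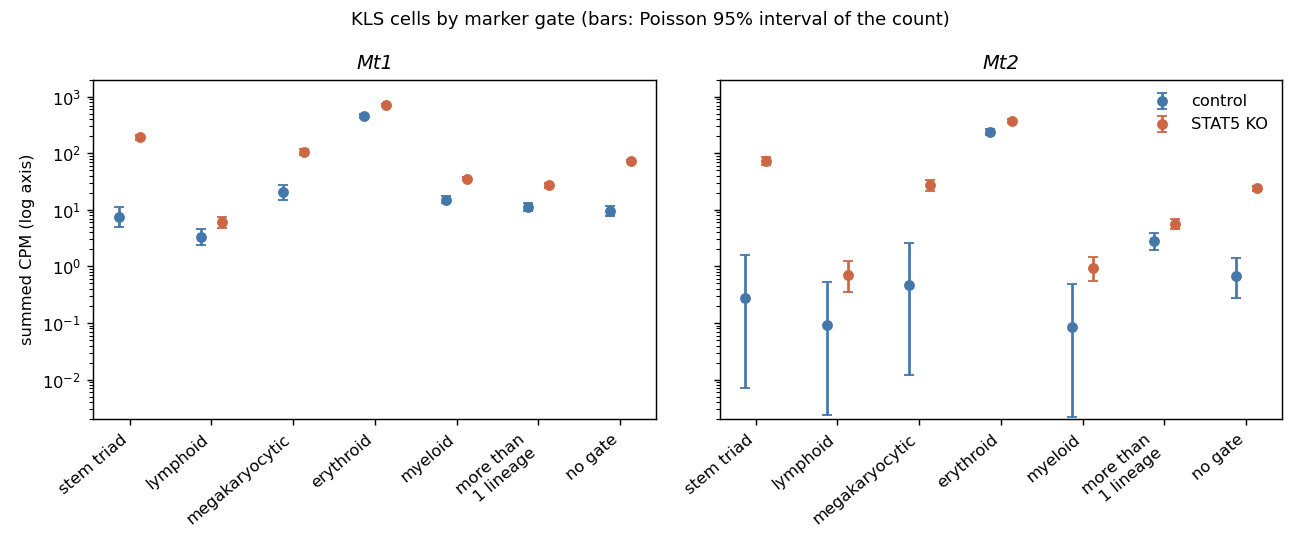
Summed CPM (vertical, log axis) of Mt1 and Mt2 in the 7 gates of KLS cells, control and STAT5 KO side by side, with Poisson 95% intervals as bars. STAT5 KO lay above control in each gate for both genes, with the widest gap in the stem triad, 194 against 7.60 CPM for Mt1, and a narrow one in the erythroid gate, 716 against 459 CPM.

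The few erythroid-gated cells carried much of the metallothionein signal. They were 1.30% of control and 1.67% of STAT5 KO KLS cells and held 50.1% and 33.0% of the Mt1 UMIs and 86.1% and 52.0% of the Mt2 UMIs. The no-gate cells held 9.66% of Mt1 UMIs in control and 25.7% in STAT5 KO. Outside the erythroid gate Mt1 was 10.3 and 42.0 CPM, a log2 ratio of 2.02 (1.89 to 2.16), and Mt2 0.880 and 9.94 CPM, a log2 ratio of 3.50 (3.06 to 3.97). In cells with no UMI of the erythroid genes Klf1, Rhag or Alas2, Mt1 was 8.59 and 36.1 CPM and Mt2 0.229 and 7.34 CPM. As a ratio the gap between the libraries was thus wider with the erythroid cells set aside. The difference in the share of thinned cells with an Mt1 UMI was 7.67 percentage points with and 6.84 without the erythroid gate. The latter came from a new random thinning, whose part was not tested. The erythroid list as a whole summed to 640.3 CPM in control against 393 CPM in STAT5 KO over all kept KLS cells, with 5 of 5 genes detected in both. Its gene Klf1 went the other way, at 6.63 and 8.99 CPM, and the others are not given singly. The stem triad, with Klf1 at 1 and 0 UMIs, still summed to 887 and 719 CPM, so the sum does not measure erythroid cells alone.

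**Figure D3:**
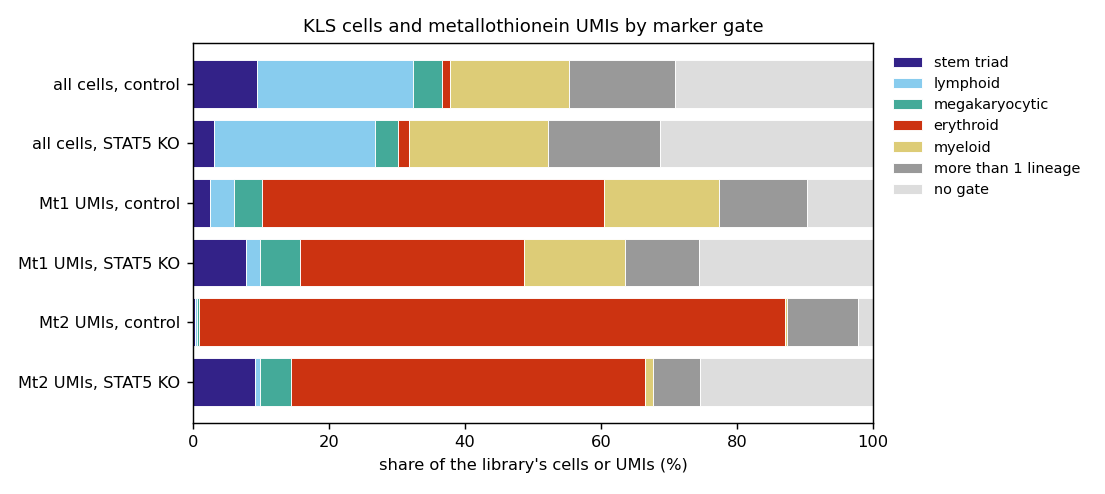
Share of the cells, of the Mt1 UMIs and of the Mt2 UMIs of each KLS library (horizontal, percent) by marker gate, 1 bar per library and quantity. The erythroid gate held 50.1% of Mt1 UMIs in control and 33.0% in STAT5 KO, from under 2% of the cells, and the share of the stem triad was 2.61% and 7.89%.

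Mt1 was very unequal between cells. In control, 24 cells (0.778%) had 10 or more Mt1 UMIs and held 58.6% of them, and in STAT5 KO 105 cells (1.56%) held 52.5%. The highest cell had 83 UMIs in control and 68 in STAT5 KO. Of the 24 control cells, 17 were in the erythroid gate, 4 in the myeloid gate and 3 in more than 1 lineage. Of the 105 STAT5 KO cells, 47 were in the erythroid gate, 25 in no gate, 9 in the myeloid gate and 8 each in the stem triad, the megakaryocytic gate and more than 1 lineage. In the erythroid gate the share of such cells was 42.5% (27.0 to 59.1%) in control and 42.0% (32.7 to 51.7%) in STAT5 KO. The control cells of this gate were deeper, at medians of 21873 against 17328 UMIs. Thinned to 5000 UMIs, 12 of 40 control cells and 47 of 106 STAT5 KO cells had 3 or more Mt1 UMIs. Those shares were 30.0% (16.6 to 46.5%) and 44.3% (34.7 to 54.3%), with overlapping intervals. At 5000 UMIs per cell, 3 or more Mt1 UMIs were found in 28 of 192 STAT5 KO stem triad cells, 14.6% (9.91 to 20.4%), and in 0 of 288 control cells, which allows up to 1.27% in the Clopper-Pearson interval. In the no-gate cells the counts were 65 of 1573 and 1 of 870.

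An Mt2 UMI was more frequent in cells with an Mt1 UMI than in cells without, but most KLS cells with Mt1 had none. After thinning, an Mt2 UMI was present in 13.2% (7.75 to 20.6%) of control KLS cells with an Mt1 UMI and in 0.0342% of those without, and in 25.2% (22.0 to 28.7%) and 0.486% in STAT5 KO. In MSC the shares were 52.2% and 11.1% in control and 51.5% and 12.4% in STAT5 KO. Mtf1 and Slc30a1 did not follow this pattern in KLS. An Mtf1 UMI was present in 11.6% of control cells with and 8.93% without an Mt1 UMI, and in 9.14% and 9.61% of STAT5 KO cells. For Slc30a1 the shares were 2.48% and 2.53% in control and 3.24% and 3.32% in STAT5 KO. The Mt2 shares were not computed within gates, and the gates differed. Of the 17 thinned control KLS cells with an Mt2 UMI, 12 were in the erythroid gate. In STAT5 KO, 154 of 1291 thinned myeloid cells had an Mt1 UMI and 4 an Mt2 UMI, beside 62 and 37 of 192 in the stem triad. The part of the gates was not tested. There were 3.28 and 3.03 Mt1 UMIs per Mt2 UMI in the control and STAT5 KO KLS libraries and 1.51 and 1.52 in the MSC libraries, which compares libraries and not the levels of the genes.

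**Figure D4:**
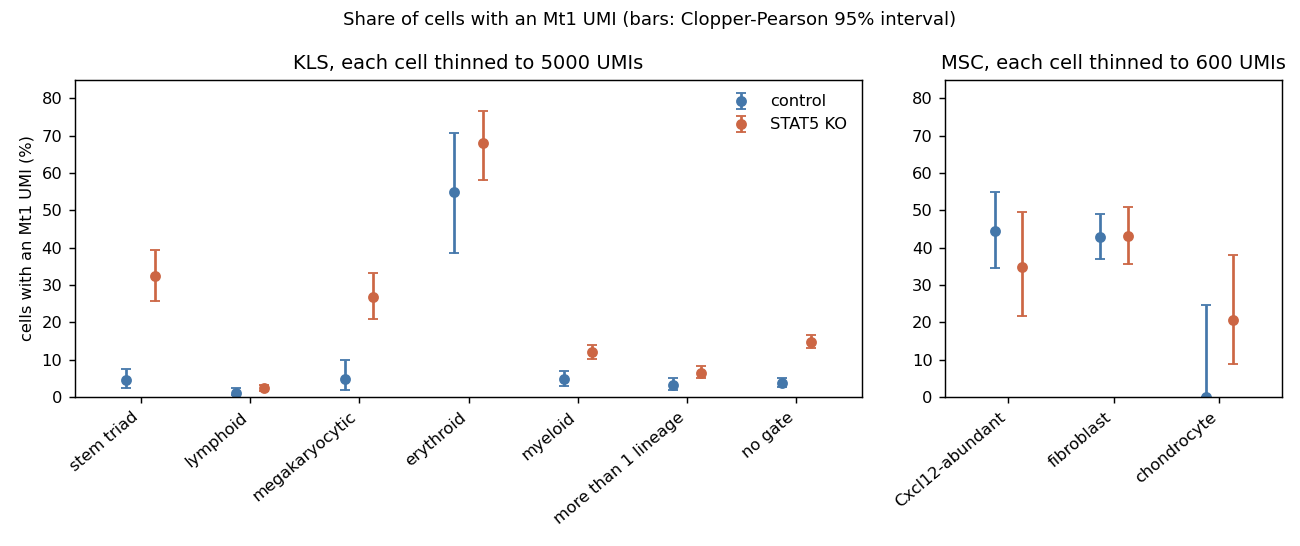
Share of cells with an Mt1 UMI (vertical, percent) by gate, in KLS cells thinned to 5000 UMIs and in the 3 stromal gates of MSC thinned to 600 UMIs, with Clopper-Pearson 95% intervals as bars. In KLS the stem triad stood at 32.3% in STAT5 KO against 4.51% in control, and in MSC the intervals of the 2 libraries overlapped in each gate shown.

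Further divisions of the KLS cells gave the same direction. In cells without a UMI of the cycling genes Mki67 and Top2a, Mt1 was 7.65 CPM in control against 61.7 CPM in STAT5 KO, and in cells with one 23.3 and 60.8 CPM. By depth within each library, Mt1 was 8.83 and 50.9 CPM in the lowest part, 8.63 and 36.0 CPM in the middle part and 30.1 and 77.3 CPM in the highest part, when the cells were split in 3 equal parts. In control the deepest and the cycling cells were the high ones, while in STAT5 KO cycling and non-cycling cells did not differ beyond counting error. The erythroid gate held 50.1% of the control Mt1 UMIs, at a median of 21873 UMIs per cell. These divisions were not computed without it, and its part was not tested.

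A UMI of Stat5a or Stat5b was still present in 454 STAT5 KO KLS cells, 6.75%. Mt1 in these cells was 208 CPM (196 to 220), with an Mt1 UMI in 51.5% of them, against 49.0 CPM (47.4 to 50.7) in the cells without one, of which 15.2% had an Mt1 UMI. Depth was alike, at medians of 10195 and 10076 UMIs. In control the values were 21.5 CPM (20.1 to 22.9) with and 12.7 CPM (10.3 to 15.6) without, at medians of 16751 and 9623 UMIs. In the stem triad of STAT5 KO, 64 of the 214 cells had a Stat5 UMI, and Mt1 was 368 CPM (320.3 to 422) in them against 119 CPM (101 to 139) in the other 150. In control the stem triad stood at 8.74 CPM with and 2.88 CPM without, the latter from 2 UMIs. Mt2 followed, at 77.6 and 15.5 CPM in STAT5 KO cells with and without a Stat5 UMI. Whether the cells with a Stat5 UMI had kept the genes was not tested. Stat5 UMIs were also uneven over the gates of STAT5 KO. Stat5a was 36.5 CPM in the stem triad, 21.5 in megakaryocytic, 14.5 in no gate and 13.5 in erythroid. It was 3.64 CPM in myeloid, 2.04 in more than 1 lineage and 1.09 in lymphoid, and the part of the gates in the contrast was not tested.

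Mtf1, the regulator, did not differ between control and STAT5 KO KLS cells beyond counting error. It stood at 19.0 CPM (17.8 to 20.2) and 19.6 CPM (18.6 to 20.6), a log2 ratio of 0.05 (-0.07 to 0.16), so a difference of 1.5-fold lies outside the counting interval, which says nothing of the spread between mice. An Mtf1 UMI was found in 9.03% and 9.55% of thinned cells. Across gates Mtf1 stayed between 18.1 and 24.8 CPM in both libraries, and the interval of its log2 ratio included 0 in all 7 gates. In the stem triad, with its wide gap in Mt1, Mtf1 was 19.7 CPM in control against 23.3 CPM in STAT5 KO, a log2 ratio of 0.24 (-0.34 to 0.80).

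Slc30a1, the exporter, was slightly higher in STAT5 KO KLS, at 6.66 CPM (6.10 to 7.27) against 5.10 CPM (4.50 to 5.76). The log2 ratio of 0.38 (0.17 to 0.61) is below the 1.5-fold size. By gate its highest ratio was in the megakaryocytic gate, at 11 UMIs in control and 28 in STAT5 KO, or 5.23 and 10.8 CPM, a log2 ratio of 1.04 (-0.01 to 2.20), where Mt1 was higher as well. In the lymphoid gate, lowest in Mt1, Slc30a1 was 4.59 CPM in control against 8.02 CPM in STAT5 KO, a log2 ratio of 0.80 (0.32 to 1.31), and in the myeloid gate 4.24 and 6.03 CPM, a log2 ratio of 0.51 (0.02 to 1.02). In the stem triad it had 14 UMIs in control and 9 in STAT5 KO, or 3.94 and 4.76 CPM, and in no gate it was 6.61 and 6.63 CPM. The interval of the log2 ratio excluded 0 in the lymphoid and the myeloid gate alone of the 7.

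In MSC both metallothioneins were lower in STAT5 KO than in control, by less than 1.5-fold. Mt1 stood at 1734 CPM (1673 to 1797) in control cells against 1353 CPM (1288 to 1421) in STAT5 KO cells, a log2 ratio of -0.36 (-0.45 to -0.27). Mt2 stood at 1145 CPM (1095 to 1196) and 891 CPM (838 to 946), a log2 ratio of -0.36 (-0.47 to -0.25). Of 10153 genes with at least 20 UMIs over both MSC libraries, 8.51% were higher and 12.1% lower by 1.5-fold or more, a wider background than in KLS from fewer cells. The share of cells with an Mt1 UMI at 600 UMIs per cell was 34.7% (30.6 to 38.9%) in control and 30.6% (25.7 to 35.8%) in STAT5 KO, a difference of -4.10 percentage points (-10.6 to 2.52). Without thinning the difference was -5.59 points (-12.2 to 1.07). Other choices of cells gave other values, but each drew the random thinning anew. Where a choice changed the cells, the cells and the draw cannot be told apart. In the draw above, control and STAT5 KO stood at 44.4% and 34.7% in Cxcl12-abundant cells and 42.9% and 43.1% in fibroblasts. In chondrocytes they stood at 0% and 20.6%. The difference was -9.27 points (-15.4 to -2.94) with shared barcodes kept, -9.06 (-16.8 to -1.11) with a stricter cell filter, -6.99 (-13.3 to -0.48) without the 1% of cells highest in Mt1 plus Mt2, -6.70 (-13.0 to -0.20) with doublets kept and -12.5 (-20.1 to -4.67) in the 3 stromal gates alone. Those 3 gates hold the same cells as the shares by gate given above. The value of -12.5 thus differs from those shares through the draw, and is not a result of the choice of cells. Mtf1 was 19.4 and 20.0 CPM, and Slc30a1 37.7 and 36.7 CPM, each with a log2 ratio whose interval included 0.

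The stromal gates differed in size and direction. In Cxcl12-abundant cells, the reticular stroma that supports stem cells, Mt1 was 1658 CPM in 99 control cells and 1072 CPM in 49 STAT5 KO cells, a log2 ratio of -0.63 (-0.87 to -0.40), and Mt2 984 and 638 CPM. In the fibroblast gate, defined by Pdgfra or Dcn, Mt1 was 2060.3 and 1813 CPM, a log2 ratio of -0.18 (-0.30 to -0.07), and that of Mt2 was -0.08 (-0.21 to 0.05). In the chondrocyte gate, defined by Col2a1 and Acan, Mt1 had 2 UMIs in 13 control cells and 381 UMIs in 34 STAT5 KO cells, or 20.1 CPM (2.44 to 72.7) and 1152 CPM (1039.6 to 1274), and Mt2 was 50.3 and 484 CPM. Of the 34 cells, 15 had an Mt1 UMI. In cells outside the gates Mt1 was 2021 CPM in control against 548 CPM in STAT5 KO, beside a B and plasma cell list of 4756 and 1564 CPM with 6 of 6 genes detected in both, whose part in the result was not tested.

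The MSC libraries also held erythroid cells, gated by 3 or more UMIs of Alas2, Klf1, Car2, Hemgn and Rhag together: 76 in control and 51 in STAT5 KO, at medians of 716.5 and 633 UMIs. There Mt1 had 33 UMIs in 3 of the control cells and 0 UMIs in STAT5 KO, which allows up to 69.0 CPM. Slc30a1 was high instead, at 183 CPM (110.0 to 285) and 299 CPM (159 to 512), and this gate held 28.8% and 29.5% of all Slc30a1 UMIs of the libraries. In the erythroid gate of KLS cells the exporter was 8.85 and 6.07 CPM, beside Mt1 at 459 and 716 CPM. In the erythroid cells of the MSC sort Kit and Ptprc were at 0 UMIs in both libraries.

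Between the sorts the metallothioneins differed more than between control and STAT5 KO. In control, Mt1 was 85.7 times (79.8 to 92.0) and Mt2 185 times (164 to 209) as high in MSC as in KLS. In STAT5 KO the ratios were 22.2 (21.0 to 23.5) and 44.3 (40.9 to 47.9). Slc30a1 was 7.38 times as high in control MSC and 5.51 times in STAT5 KO MSC, and Mtf1 1.02 times in both. Much of the Slc30a1 of MSC lay outside the stromal gates. Erythroid and no-gate cells held 28.8% and 27.3% of its UMIs in control and 29.5% and 27.3% in STAT5 KO. In control and STAT5 KO it was 20.2 and 10.7 CPM in Cxcl12-abundant cells, 20.0 and 11.1 CPM in fibroblasts and 10.1 and 30.2 CPM in chondrocytes. Stromal RNA was scarce in the KLS cells used: Cxcl12, at 6759 and 4103 CPM in MSC, was 0.196 and 0.144 CPM in KLS, and Dcn was 0.0587 and 0.0916 CPM.

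The other genes of metal handling showed little of the size seen in Mt1 and Mt2. Of 52 listed genes, 46 were measured in KLS, and the 2 past 1.5-fold were Mt1 and Mt2 themselves, both higher. The median log2 ratio of the 46 was 0.05, beside -0.01 over all genes measured. Over all 13973 genes measured in KLS, 1.02% were higher and 2.32% lower by 1.5-fold or more, so few are to be found in any short list. Of 8 measured zinc exporters and 12 measured zinc importers none was past 1.5-fold, which is near that share, with medians of 0.02 and 0.08. The importer with the highest ratio among those of at least 100 UMIs was Slc39a1, a plasma membrane transporter, at 39.5 and 52.5 CPM, a log2 ratio of 0.41 (0.33 to 0.49). Slc39a14, an importer induced in inflammation, was 8.08 and 10.6 CPM, and Slc39a10 was 26.5 and 33.3 CPM. Slc39a4, the importer of the gut, was 2.09 and 1.14 CPM. These 4 were chosen after their values were seen. Of 11 copper and 12 iron genes none was past the size, again near the share over all genes, with medians of 0.05 and -0.09.

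In MSC, 40 of the 52 were measured, 2 were higher and 2 lower by 1.5-fold, which is no more than the 8.51% higher and 12.1% lower over all genes, and the median log2 ratio was -0.07, beside -0.06 over all genes. The higher ones were the importers Slc39a11, at 10.3 and 22.5 CPM, and Slc39a8, at 5.71 and 10.0 CPM. The lower ones were the copper transporter Slc31a2, at 20.5 and 7.50 CPM, and the iron regulator Aco1, at 23.4 and 14.2 CPM. These 4 are named after their values were seen. Each rested on at most 41 UMIs in a library, and with a minimum of 100 UMIs over both the count was 0.

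**Figure D5:**
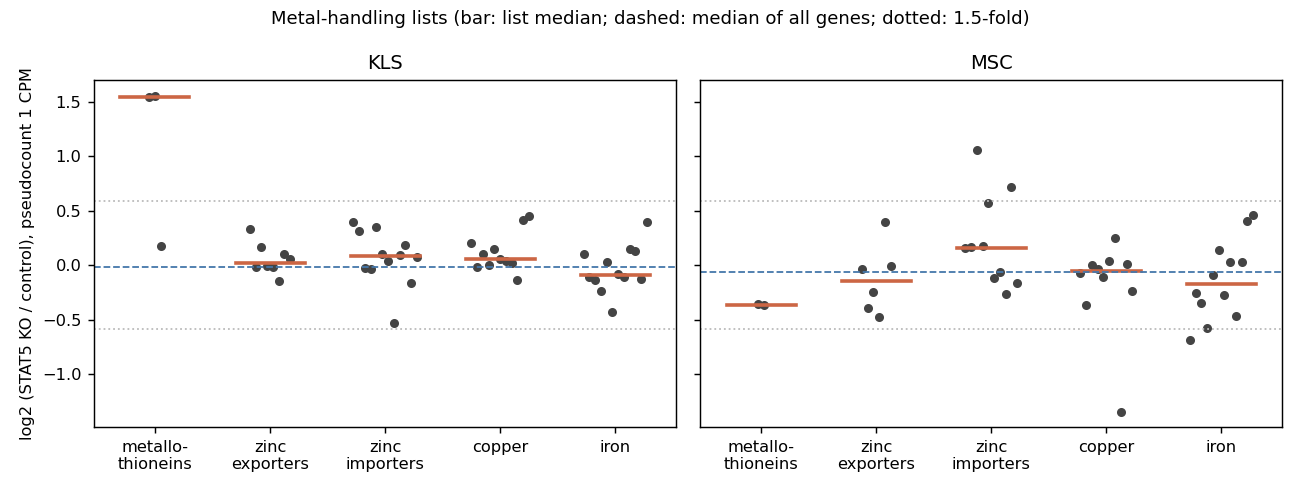
Log2 ratio of STAT5 KO over control (vertical, pseudocount 1 CPM) for the measured genes of 5 lists in KLS and MSC, 1 point per gene, with list medians as bars, the median of all genes dashed and 1.5-fold dotted. Mt1 and Mt2 stand apart from the other lists in KLS, at 1.54 and 1.56, and below 0 in MSC, at -0.36 each.

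Most measured genes around Mt1 were below 1.5-fold. Of the 18 genes annotated within 250 kb, 9 besides Mt1 and Mt2 were measured in KLS. Without a pseudocount their median log2 ratio was 0.01, and 1 was past 1.5-fold. That was Mt3, with 4 and 17 UMIs and a log2 ratio of 1.51 (-0.11 to 3.54), an interval that includes both 0 and the value of Mt1. With the pseudocount of 1 CPM used for a size call, Mt3, at 0.0782 and 0.223 CPM, was not past 1.5-fold. The lincRNA 9330175E14Rik was lowest at -0.51. Nup93, a nuclear pore gene on the far side of Mt1 from Mt2, was 38.2 and 45.5 CPM, a log2 ratio of 0.25, and Nudt21, a subunit of the cleavage factor of mRNA ends, was 188.5 and 189.6 CPM.

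Across the 13 gates of both KLS libraries that held at least 50 cells, the genes whose log2 CPM was most like that of Mt1 were Slc35d1 (Pearson 0.94), Ube2q2 (0.94), Mt2 (0.94), Atg2b (0.93) and Pccb (0.93), out of 9093 genes with at least 1000 UMIs. The points share libraries and depth, and the likeness is a description. The span of the others was far smaller than that of Mt1: Slc35d1 ran from 8.71 CPM in control lymphoid to 19.1 CPM in STAT5 KO erythroid cells, where Mt1 ran from 3.37 to 716 CPM. Mtf1 was at 0.83, rank 112, and Slc30a1 at 0.28, rank 3079.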

How the data were processed

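The authors deposited raw UMI counts per gene and cell barcode, with no normalization, made with Cell Ranger per the submitters' processing notes, version 3.1.0 per the file headers, on GRCm38/mm10. The strand rule and cell calling are not given in the sources used here. Groups came from the labels' genotype and cell type, and 0 columns of values were left unused. Of 31053 identifiers, 31011 were in GENCODE M21 (GRCm38), which gave the positions. A cell needed 200 genes or more and no more than 10% of UMIs from mitochondrial genes. The highest Scrublet scores (scanpy 1.11.5) were left out at 0.8% of barcodes per 1000, which marked 112, 451, 4 and 1 barcodes in KLS control, KLS STAT5 KO, MSC control and MSC STAT5 KO, since its automatic threshold marked 0, 1, 0 and 1. Barcodes with more UMIs in another library, 388, 281, 33 and 17, were also left out. The total depth per library was 55138419, 82466835, 1874023 and 1270763 UMIs. No correction for free RNA was made.

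Counts were summed over cells and scaled to CPM. Sums carry exact Poisson, shares Clopper-Pearson and ratios exact conditional binomial intervals, which cover counting error only, and 3 counts set the limit for a 0. A size call needs 20 UMIs over both libraries and 1.5-fold with a pseudocount of 1 CPM. The ratio script was tested on simulated data. The gates, by UMIs per cell, were lymphoid, Dntt at least 2, megakaryocytic, Pf4 at least 2, erythroid, Klf1 and Gata1 at least 1 each, and myeloid, Mpo at least 5 with Elane, Prtn3 and Ctsg together at least 5. The stem triad needed Hlf, Mecom and Procr at least 1 each and no lineage. Named genes were the members, the genes of each list past 1.5-fold (at most 4 each way, with at least 100 UMIs), the 5 most like Mt1 and those within 250 kb of it, and others are marked where named. One gene of the erythroid list is not reported here and was not used in lists or gates. The members and lists were chosen with earlier results of these data known. Alternatives are in the closing section. TMM factors came from edgeR 4.0.16 in R 4.3.3.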

Additional observations from a re-analysis of the deposited data

Results flagged for a closer look

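The difference between the STAT5 KO and control libraries in both metallothioneins went in opposite directions in the 2 sorts, beyond counting error in each. For Mt1 the log2 ratio of STAT5 KO over control was 1.59 (1.49 to 1.69) in KLS and -0.36 (-0.45 to -0.27) in MSC, 1.95 apart. For Mt2 it was 1.70 (1.53 to 1.88) and -0.36 (-0.47 to -0.25), 2.06 apart. With 1 library per group the difference was not tested, genotype cannot be told apart from mouse or preparation, and the genes were picked for this contrast of Mt1.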

How the results depend on the processing

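No paired analysis was possible because each group holds 1 library. Of 112 values recomputed for the main results, 92 stayed within the main counting interval, or within 1.5 times for a count, 20 moved beyond it and 0 reversed. In KLS the log2 ratio of Mt1, 1.59, became 1.14 with shared barcodes kept, 1.49 with a stricter cell filter, 1.93 as a mean of single-cell CPM and 1.69 with STAT5 KO gates weighted to the control's shares. Without the 1% of cells highest in Mt1 plus Mt2 it was 2.34, without the erythroid gate 2.02 and without cells with a UMI of Klf1, Rhag or Alas2 2.07. That of Mt2, 1.70, became 0.95 with shared barcodes kept, 2.69 as a mean of single-cell CPM, 5.19 without the highest 1%, 3.50 without the erythroid gate and 5.0 without cells with a UMI of Klf1, Rhag or Alas2. The difference in the share of KLS cells with an Mt1 UMI, 7.67 percentage points, was 4.89 with cells thinned to 2500 UMIs. In MSC the log2 ratio of Mt2, -0.36, was -0.21 without the chondrocyte gate, -0.23 as a mean of single-cell CPM and -0.20 with gates weighted. The difference in the share of MSC cells with an Mt1 UMI, -4.10 points, was -12.5 points in the 3 stromal gates alone, and between -9.27 and -6.70 with shared barcodes or doublets kept, a stricter cell filter or without the highest 1%, each with an interval that excluded 0. Each of these drew the random thinning anew. In the 3 stromal gates the cells were those of the main draw, so -12.5 differs from their main shares through the draw. For the others the part of the draw cannot be told apart from that of the cells. Without thinning the difference was -5.59 points (-12.2 to 1.07). The MSC count of metal genes past 1.5-fold, 4, was 2 with a pseudocount of 10 CPM, 0 with a minimum of 100 UMIs and 2 at 2-fold. For the log2 ratios and gene counts, the cells and genes left out show the cause of the leave-out and threshold changes by construction. Apart from the draw in the 3 stromal gates, the cause of the other changes, with those of the thinned shares, was not tested. TMM scaling and totals without mitochondrial, ribosomal protein and hemoglobin genes moved none of them. The alternatives that leave out or keep gates, and those on erythroid UMIs, were chosen after seeing the data. Depth limits Mt2 in control KLS, where 4 gates held 1 UMI each, and Mtf1 in MSC, where 34 and 24 UMIs leave a log2 interval from -0.77 to 0.84.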

Other observations

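Other stress lists were described beside the metallothioneins. In KLS, the 13 heat-shock genes all had higher values in STAT5 KO, with a median log2 ratio of 0.41, and 3 were higher by 1.5-fold. Over all 13973 genes measured in KLS, 6646 had higher values and 1.02% were higher by 1.5-fold. Those 3 heat-shock genes were the inducible HSP70 genes Hspa1a, at 6.36 CPM in control cells against 21.7 CPM in STAT5 KO cells, and Hspa1b, at 6.88 and 25.9 CPM, and the co-chaperone Hsph1, at 43.7 and 92.1 CPM. Hspa1a and Hspa1b are near-identical copies, so the split of their reads is uncertain. Of 14 oxidative stress genes, 12 immediate early genes and 9 hypoxia genes measured, none was past the size in KLS, with medians of -0.07, -0.16 and -0.04. Of 10 glucocorticoid-induced genes, Ddit4 alone was, at 16.5 CPM in control against 10.4 CPM in STAT5 KO, beside 2.32% of all genes lower by that size.

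In MSC, 3 of 13 measured oxidative stress genes were higher by 1.5-fold and 0 lower, beside 8.51% higher and 12.1% lower over all 10153 genes measured. Srxn1, which encodes sulfiredoxin, was 45.6 CPM in control against 168 CPM in STAT5 KO, a log2 ratio of 1.88. The others, named after their values were seen, were Me1, with 22 and 35 UMIs, and Nqo1, with 13 and 17 UMIs. The heat-shock list had 1 gene on each side: Dnajb1 was 318 and 526 CPM, and Hspb1 294 and 181 CPM. Of the 12 immediate early genes, 11 had higher values in STAT5 KO MSC, with a median log2 ratio of 0.27, beside 4435 of all 10153 genes, and Fosb alone was past 1.5-fold, at 1949 and 3323 CPM. These lists share libraries with the members and were not tested.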
